A study of Mus musculus with 6 samples.

Results

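The genes described here build the centromere and the kinetochore, run the spindle checkpoint, or organise the mitotic spindle, and they were followed in mouse osteosarcoma lines and in mouse osteoblasts. They are 41 genes chosen by name from knowledge of their function, with earlier results of these data known, of 19938 genes measured. All 41 were on the array, each with 1 probe set. In the platform annotation 40 were found under the listed symbol, and Sgol1 was found through its RefSeq synonym as Sgo1.

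The osteosarcoma group held 3 cell lines, OS_493H, OS_494H and OS_716H, each grown out of a primary tumour of a C57Bl6 mouse that was Osx-Cre+ with p53 fl/fl and Rb fl/fl alleles. In this model the Osterix (Sp7) promoter, which is active in the osteoblast lineage, drives Cre. The tumours were at the hip in the first 2 lines and at the tibia in OS_716H, and the mice were F, M and F with ages of 188, 190 and 226 (unit not given). The osteoblast group held 3 samples of KUSA4b10, a C57Bl6 bone marrow stromal line, kept in 50 ug/ml ascorbate for 21 days from confluence, and they are called cultures 1, 2 and 3 below. All 6 samples were grown in RPMI with FCS, and each gave total RNA for 1 array. All 3 cultures are 1 cell line. Their titles carry the replicate numbers 1 to 3 and the marks Ex1, Ex2 and Ex3, whose meaning the labels do not give. Whether they were grown independently is not spelled out, so p-values measure only the spread between these samples, which may be technical. The labels give no confluence, day or ascorbate for the tumour lines, so tumour origin and growth state cannot be told apart.

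Values are log2 expression, and a difference of 1 is a 2-fold difference. Within the osteoblasts, cultures 1 and 3 lay close together, with 3 of 19938 genes more than 1 log2 unit apart, and culture 2 stood apart with 150 and 186 such genes. Rb1, 1 of the genes floxed in the model, was 9.26 to 9.87 in the lines and 10.66 to 10.68 in the cultures. The array labelled OS_716H, from an F mouse, carried the Y-linked gene Uty at 10.06, near the 9.90 of the male line OS_494H, and Xist at 5.50 against 12.62 in OS_493H. Results are therefore also given without culture 2 and without OS_716H. Of 7 osteoblast markers, Ibsp, Dmp1 and Phex were lower in the lines and the other 4 did not pass. Among these 4, Alpl and Sp7 differed by -1.39 and -1.205 (adjusted p = 0.224 and 0.141). Col1a1 was 13.25 (mean of lines) and 13.31 (mean of cultures), and Col1a2 differed by -0.03. Runx2, Bglap and Spp1 were also listed but not matched to a probe set. Of 8 fat cell markers 7 were lower in the lines, and Lep did not pass. Of 11 blood and endothelial markers, Cd14 rose by 0.53 and the other 10 did not pass. Among these 10 the endothelial gene Tek stood apart in single lines, at 9.05 in OS_493H and 7.52 in OS_716H, against 6.30 in OS_494H and 6.34 to 6.40 in the cultures (difference 1.24, adjusted p = 0.21), while Pecam1 and Cdh5 differed by -0.01 and 0.0009. The part of these markers in the kinetochore values was not tested.

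The centromere is the part of a chromosome where the histone variant CENP-A replaces ordinary histone H3. On it sits a constitutive inner layer of CENP proteins, which in mitosis carries an outer layer that holds microtubules. Kinetochores without microtubules emit the spindle checkpoint signal, which delays anaphase. Transcripts of many of these genes are made mainly in the G2 and M phases of the cell cycle and are scarce in resting cells, so their level in a cell population depends on how many cells are dividing. In RNA from a whole culture, fewer dividing cells and less RNA per dividing cell cannot be told apart.

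Most of the machinery was higher in the osteosarcoma lines. Of the 41 genes, 36 rose and none fell (limma, p adjusted by Benjamini-Hochberg for 19938 genes, threshold 0.05), against a background of 13.2% of all genes higher and 11.4% lower. The rises ran from 1.49-fold for Cenpc1 to 7.99-fold for Bub1b, with adjusted p from 0.000336 to 0.0139, and 35 of the 36 were at least 2-fold in size, against 4.07% of all genes called higher at that size. The median difference over the 41 genes was 2.21 on the log2 scale, a 4.63-fold higher level, beside a median of -0.02 over all genes. Every line lay above every culture for 38 of the 41, which was so for 20.5% of all genes. The 5 genes that did not pass were Cenpb, Mis12, Zwint, Bub3 and Mad1l1.

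**Figure D1:**
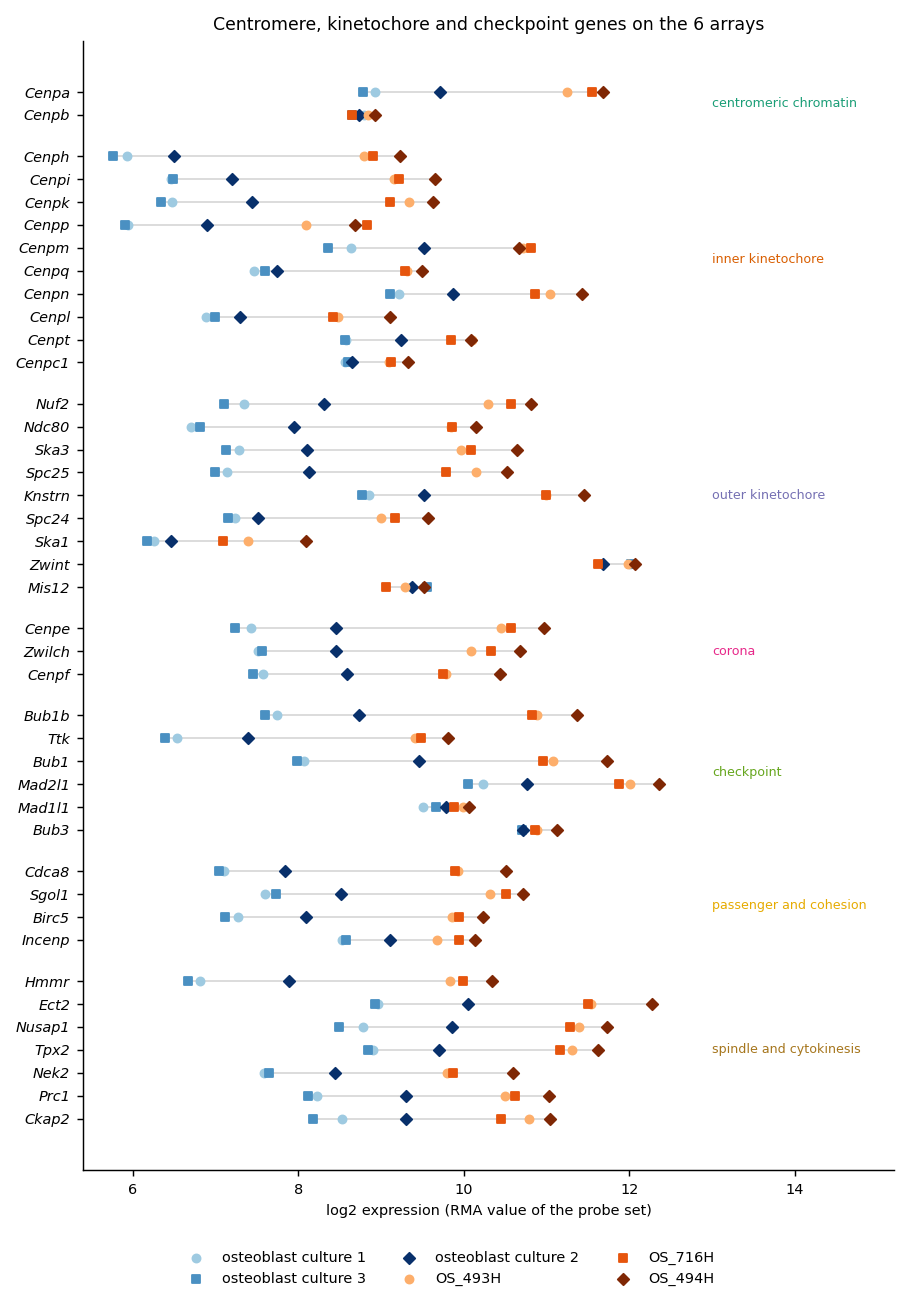
Log2 expression (x axis) of each of the 41 genes (rows, grouped by role and sorted by difference) on the 6 arrays, 1 point per array, with blue points for osteoblast cultures and orange to brown points for osteosarcoma lines. The lines lie to the right of the cultures in 38 rows, culture 2 (dark blue diamond) lies between cultures 1 and 3 and the lines in most rows, and the points of Cenpb, Zwint and Mis12 overlap.

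The count depends on how the spread is estimated. With each gene's spread taken from that gene alone and separately for lines and cultures, 2 changes were made together. Then 1 of the 41, Cenpq, passed (adjusted p = 0.034), beside 213 of all 19938 genes called higher. An unadjusted p under 0.05 was found for 37 of the 41, against 26.4% of all genes. When the test asked for more than a 2-fold change, 13 passed, beside 121 of all genes called higher. Without culture 2 the count was 37, beside 2086 of all genes called higher. Without OS_716H it was 36, beside 2796 of all genes. For a single gene an exact permutation test of 3 samples against 3 cannot go below p = 0.1.

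Promoters were read for the genes that moved together, because many mitotic genes share 2 promoter elements. These are the cell cycle homology region, spelled TTTGAA here, with TTCGAA as the other form searched, and the CCAAT box, which binds NF-Y. Further spellings of the homology region were not searched. RefSeq windows of GRCm38.p6, from 250 bases before to 50 bases after the annotated start, were at hand for 36 of the 41 genes, and those of Spc24, Ska1, Zwilch, Incenp and Tpx2 were not used here. The stretches printed run from base -110 to base 19, where base 0 is the annotated start, 5′ to 3′ on the gene's strand. Capitals mark both elements on either strand (on the opposite strand the first form reads TTCAAA, and the box reads ATTGG). The first 4 genes rose and hold both elements; Bub3 holds both and did not pass; Zwint did not pass; Nuf2 rose and holds neither.
Bub1, chr2:127831840-127831969, minus strand: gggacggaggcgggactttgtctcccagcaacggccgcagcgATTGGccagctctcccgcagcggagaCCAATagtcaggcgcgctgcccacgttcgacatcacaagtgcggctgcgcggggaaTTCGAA
Ttk, chr9:83834579-83834708, plus strand: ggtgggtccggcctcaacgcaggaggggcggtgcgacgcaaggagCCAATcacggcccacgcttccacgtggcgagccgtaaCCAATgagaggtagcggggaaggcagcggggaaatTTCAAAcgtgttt
Hmmr, chr11:40733418-40733547, minus strand: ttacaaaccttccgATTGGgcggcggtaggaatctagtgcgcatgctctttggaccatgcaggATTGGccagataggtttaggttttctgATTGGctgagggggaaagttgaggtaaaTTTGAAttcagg
Prc1, chr7:80294341-80294470, plus strand: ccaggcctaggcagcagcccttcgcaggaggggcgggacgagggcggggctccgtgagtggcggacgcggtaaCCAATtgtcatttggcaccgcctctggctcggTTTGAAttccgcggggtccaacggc
Bub3, chr7:131560260-131560389, plus strand: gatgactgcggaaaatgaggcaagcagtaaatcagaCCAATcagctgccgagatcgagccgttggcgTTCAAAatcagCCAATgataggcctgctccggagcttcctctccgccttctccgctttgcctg
Zwint, chr10:72654736-72654865, plus strand: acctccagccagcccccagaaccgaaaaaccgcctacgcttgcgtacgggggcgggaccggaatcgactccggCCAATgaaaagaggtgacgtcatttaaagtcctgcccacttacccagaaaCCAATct
Nuf2, chr1:169531445-169531574, minus strand: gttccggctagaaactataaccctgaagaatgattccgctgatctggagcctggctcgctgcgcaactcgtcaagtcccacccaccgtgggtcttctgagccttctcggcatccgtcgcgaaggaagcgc

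In Bub1 the boxes begin at -68 and -42 and the homology letters at 14, and in Ttk they begin at -65, -28 and 7. In Hmmr the whole window holds 5 boxes, of which 3 are printed, before homology letters at 8. In the first listed Prc1 window, a box at -37 is followed by homology letters at -5. In Bub3 the homology letters (-43) lie between boxes at -74 and -32. Boxes and homology letters kept no single order among the genes that rose: in Cdca8 the homology letters (13) also lie between boxes (-11 and 18), and in Ckap2 they lie at -101, before a box at -20.

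Over the 36 genes with a window, 18 (50.0%) held the homology letters, against 21.7% of all 27025 genes with such windows. CCAAT was found in 25 (69.4%), against 41.1%, and both elements in the same window in 16 (44.4%), against 8.61%. E2F letters (on either strand, with TTTCCCG as the first form, TTTCGCG as the next, then TTTGCCG and finally the form TTTGGCG) were found in 8 (22.2%), against 7.65%. Homology letters within 50 bases of the start, a range chosen after the positions were seen, were found in 15 (41.7%), against 6.12%. Among only the 15563 measured genes with a window, homology letters were in 19.0%, CCAAT in 41.7% and both in 7.70%. E2F letters were in 9.71% of these measured genes, and homology letters near the start in 5.01%. Of the 31 genes that rose and have a window, 17 held the homology letters, and of the 5 that did not pass, Bub3 alone did. CCAAT was in 22 of these 31 and 3 of these 5, and E2F letters in 7 and 1. CCAAT was found 2 or more times in 13 of the 31 and 3 of the 5, against 13.3% of all genes with a window and 14.3% of the measured ones. No test was made of these shares, and a gene with several windows counts once if any of them holds the letters. A match of letters is a description of the sequence and does not show that a factor binds there.

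**Figure D2:**
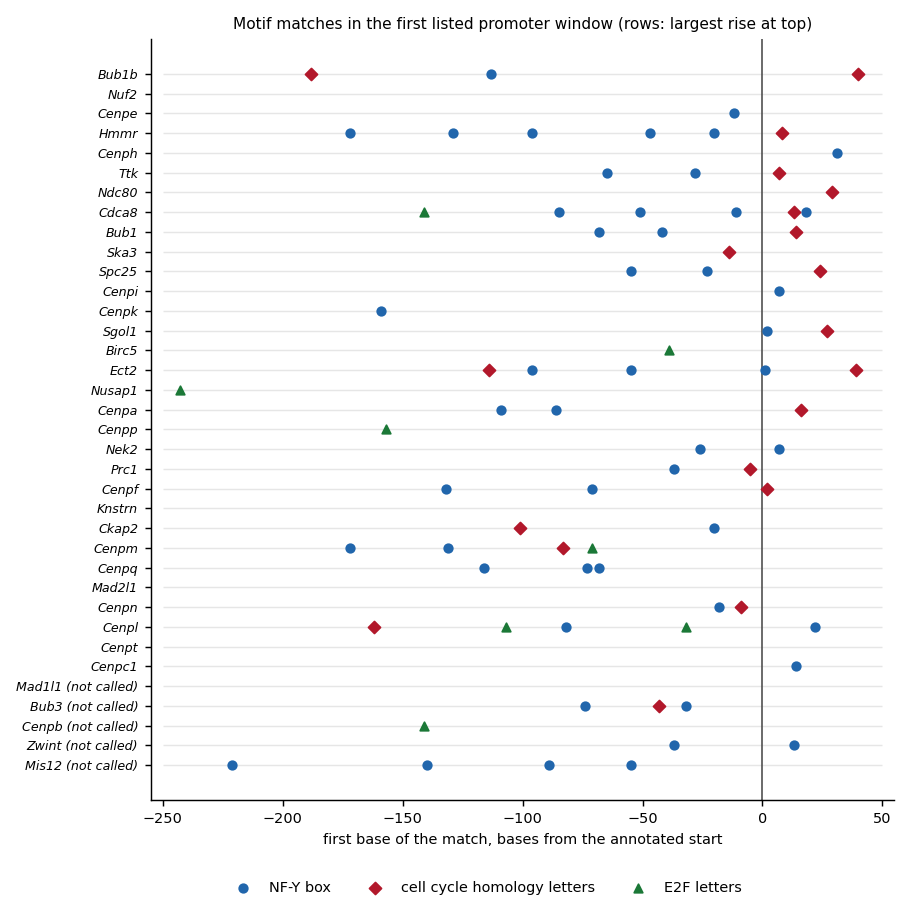
Position of each motif match (x axis, bases from the annotated start) in the first listed promoter window of the 36 genes (rows, largest rise at the top), with diamonds for the cell cycle homology letters, circles for the NF-Y box and triangles for the E2F letters. Diamonds gather near the start in 15 genes over all their windows, and Nuf2, Knstrn, Mad2l1, Cenpt and Mad1l1 have no mark.

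Of 2 centromeric chromatin genes, Cenpa rose and Cenpb did not pass. Cenpa, which encodes the histone H3 variant that defines the centromere, was 11.25, 11.69 and 11.55 in OS_493H, OS_494H and OS_716H, and 8.93, 9.71 and 8.79 in cultures 1, 2 and 3. The groups did not overlap, and the difference was 2.35 ± 0.25 (SE, 95% interval 1.75 to 2.96, adjusted p = 0.0016). Cenpb, which encodes a protein bound to the sequence repeats of the centromere, was 8.84, 8.92 and 8.65 in the lines, against 8.80, 8.74 and 8.65 for cultures. Its groups overlapped, and the difference of 0.07 (95% interval -0.15 to 0.30, adjusted p = 0.641) did not pass.

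The inner kinetochore is the layer of CENP proteins that stays on the centromere through the cell cycle. All 10 of its genes among the 41 rose, with a median difference of 1.83. Further genes of this layer are counted with the related lists below. Of these, Cenpx did not pass (0.36, adjusted p = 0.0923). Cenps, Itgb3bp and Cenpo rose less than 2-fold, by 0.65, 0.69 and 0.75 on the log2 scale, and Cenpw and Cenpu rose by 1.00 and 2.04. Cenph, whose product sits with those of Cenpi, Cenpk and Cenpm in 1 complex, changed most. It was 8.80, 9.23 and 8.90 in the lines, against 5.93, 6.50 and 5.76 for cultures, a difference of 2.91 ± 0.21 (SE, adjusted p = 0.00061). Of its partners, Cenpi and Cenpk rose by a like amount, at 2.62 ± 0.23 and 2.60 ± 0.30 (SE). Cenpm rose less, by 1.89 ± 0.28 (SE). The others of these 10 genes lay between 0.57 and 2.29. Cenpq had the lowest adjusted p of the 41 genes: it was 9.31, 9.50 and 9.29 in the lines, against 7.46, 7.74 and 7.60 for cultures, a difference of 1.77 ± 0.10 (SE, adjusted p = 0.000336). Cenpp rose 4.88-fold, Cenpm 3.71-fold, Cenpn 3.27-fold, Cenpl 3.05-fold and Cenpt 2.33-fold. The smallest rise of the 10 was that of Cenpc1, at 9.10, 9.33 and 9.12 against 8.57, 8.65 and 8.60. Cenpc1 encodes CENP-C, a link between centromeric chromatin and the outer layer. Its groups did not overlap, but the difference was 0.57 ± 0.09 (SE, adjusted p = 0.00467), under a 2-fold change.

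In the outer kinetochore 7 of the 9 genes among the 41 rose, and Zwint and Mis12 did not pass. The NDC80 complex, the main microtubule coupler, has 4 subunits, and all were higher. Nuf2 was 10.30, 10.82 and 10.57 in the lines, against 7.35, 8.31 and 7.10 for cultures, 2.98 ± 0.31 higher (SE, adjusted p = 0.00153). Ndc80 was 9.84, 10.14 and 9.85 against 6.70, 7.95 and 6.82, and 2.79 ± 0.33 higher (SE, adjusted p = 0.002). Neither gene had a line that overlapped a culture. Spc25 rose 6.63-fold and Spc24 3.83-fold.

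The SKA complex tracks microtubule ends beside NDC80. Its gene Ska3 rose 6.64-fold, at 9.97, 10.65 and 10.09 against 7.28, 8.10 and 7.12. Ska1 was 7.39, 8.10 and 7.09 in the lines, against 6.26, 6.46 and 6.17 for cultures, a difference of 1.23 ± 0.25 (SE, adjusted p = 0.0139). OS_494H stood above the other lines, and the call of Ska1 was lost without culture 1 (adjusted p = 0.0585) or without culture 3 (0.0592). Knstrn, which encodes a kinetochore protein that also lies on the spindle, rose 4.29-fold. Zwint, whose product helps to recruit the checkpoint complex at the outer layer, was 11.98, 12.07 and 11.62 in the lines, against 12.01, 11.68 and 12.02 for cultures. The groups overlapped, and the difference of -0.02 (95% interval -0.38 to 0.34, adjusted p = 0.955) turned to 0.049 with median centring. Mis12, whose product is part of the platform on which NDC80 sits, was 9.29, 9.52 and 9.05 against 9.36, 9.37 and 9.56. It also overlapped, with a difference of -0.14 (95% interval -0.46 to 0.18, adjusted p = 0.517).

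The corona, an outermost layer that captures microtubules before stable attachment, was higher in its 3 genes among the 41. Cenpe, the kinesin motor of the kinetochore, was 10.46, 10.96 and 10.57 in the lines, against 7.43, 8.46 and 7.24 for cultures, a 7.75-fold difference (2.95 ± 0.33 SE, adjusted p = 0.00168). Zwilch, a subunit of the complex that brings dynein and checkpoint proteins to kinetochores, rose 5.76-fold. Cenpf, a large coiled-coil protein of the corona, rose 4.35-fold.

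Checkpoint genes split into kinases and Mad2l1, which rose, and Bub3 and Mad1l1, which did not pass. Bub1b encodes BubR1, a part of the complex that inhibits the anaphase-promoting complex. Its level was 10.88, 11.37 and 10.82 in the lines, against 7.75, 8.73 and 7.60 for cultures, 3.00 ± 0.31 higher (SE, 95% interval 2.25 to 3.75, adjusted p = 0.0015). Bub1, a kinase that marks centromeric histone H2A, was 11.08, 11.74 and 10.95 against 8.07, 9.46 and 7.98. Culture 2 was well above the other cultures for Bub1, and the difference of 2.75 carried the widest error of the 41 genes, ± 0.42 (SE, adjusted p = 0.00499). Ttk, the kinase MPS1 that starts the signal, was 9.42, 9.80 and 9.49 against 6.54, 7.40 and 6.39, a 6.93-fold difference. Mad2l1, the MAD2 protein that binds the activator CDC20, rose 3.32-fold.

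The smallest differences among the 6 checkpoint genes were those of Bub3 and Mad1l1. Bub3, the adaptor that carries BUB1 and BubR1 to the kinetochore, was 10.88, 11.12 and 10.86 in the lines, against 10.71, 10.72 and 10.70 for cultures. Mad1l1, the partner of MAD2 at the kinetochore, was 9.99, 10.06 and 9.88 against 9.51, 9.79 and 9.66. Each line lay above each culture for both genes, but the differences were small and did not pass: 0.25 (95% interval 0.03 to 0.46, adjusted p = 0.0998) and 0.32 (95% interval 0.09 to 0.55, adjusted p = 0.0555). Both passed with median centring (adjusted p = 0.0406 and 0.0283), and Mad1l1 also passed without culture 2 (0.0469), among brighter genes alone (0.048) and with array weights (0.0248).

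The chromosomal passenger complex corrects wrong attachments through the kinase Aurora B, and its targeting subunits were higher. Cdca8, which encodes borealin, was 9.93, 10.51 and 9.89 in the lines, against 7.10, 7.84 and 7.04 for cultures, a 6.87-fold difference. Birc5, which encodes survivin, was 9.86, 10.23 and 9.95 against 7.27, 8.09 and 7.12, a 5.72-fold difference. Incenp, the scaffold of the complex, rose by 1.18 ± 0.19 (SE, adjusted p = 0.00598), with 9.68, 10.13 and 9.94 against 8.52, 9.11 and 8.58. The groups of these 3 genes did not overlap. Sgol1, the shugoshin that protects centromeric cohesion, rose 5.93-fold (2.57 ± 0.25 SE, adjusted p = 0.00124).

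All 7 genes of the spindle and of cytokinesis among the 41 rose, by 2.09 to 2.93 on the log2 scale. Hmmr, a spindle pole and microtubule protein that is also a hyaluronan receptor, was 9.84, 10.34 and 9.99 in the lines, against 6.81, 7.89 and 6.67 for cultures, a 7.64-fold difference. Ect2, the exchange factor that activates RhoA for cytokinesis, was 11.53, 12.28 and 11.50 against 8.96, 10.05 and 8.93, a 5.49-fold difference. Prc1, which bundles the microtubules of the central spindle, was 10.50, 11.02 and 10.62 against 8.22, 9.31 and 8.12, a 4.48-fold difference. In all 3 genes OS_494H was the highest line and culture 2 the highest culture. Nusap1, Tpx2, Nek2 and Ckap2, which act on spindle microtubules or the centrosome, rose 5.38-, 4.63-, 4.56- and 4.25-fold.

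**Figure D3:**
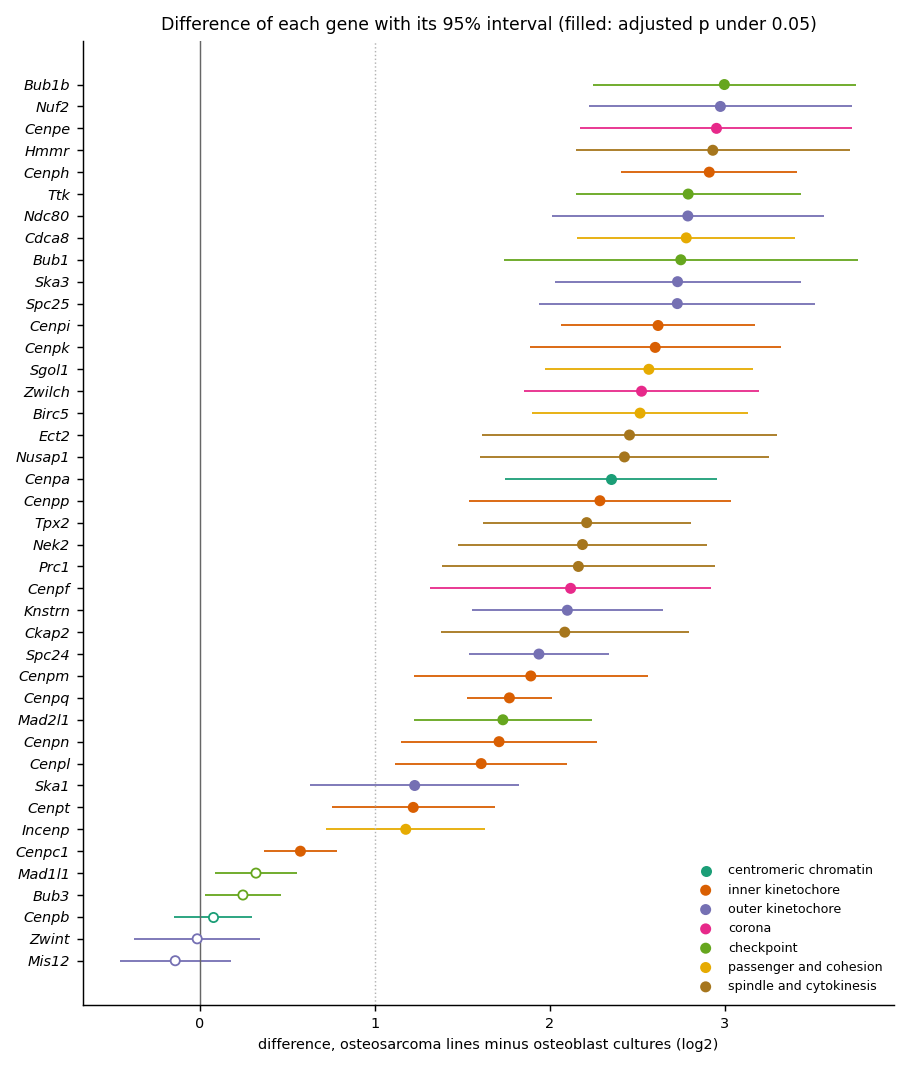
Difference of each gene on the log2 scale (x axis, osteosarcoma lines minus osteoblast cultures), with its 95% interval from limma as a bar, sorted by size and coloured by role. The 36 filled points passed the test and lie from 0.57 to 3.00, and the 5 open points lie from -0.14 to 0.32.

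By size, 16 of the 41 differences were at least 2.5, a further 10 were between 2 and 2.5, 9 were between 1 and 2, and 6 were under 1. Among all 19938 genes ranked by rise, 16 of the 41 were within the first 100. The 5 genes that did not pass were not dim: their group means lay between 8.73 and 11.90, above the median of 7.53 over all values.

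The same genes also varied among the osteoblast cultures. Culture 2 was the highest culture for 38 of the 41 genes, all but Cenpb, Mis12 and Zwint, against 37.5% of all genes. It exceeded both other cultures by more than 0.5 log2 units for 31 of the 41, against 2.24% of all genes (446), so these 31 made up 6.95% of all genes with such a gap. Its median excess over the mean of cultures 1 and 3 was 0.85, with the largest at Bub1 (1.43), Nusap1 (1.22), Ndc80 (1.19) and Hmmr (1.15). The largest gap between cultures 1 and 3 among the 41 genes was 0.35, for Ckap2. For the 36 genes that rose, culture 2 stood at a median of 33.0% of the log2 distance from cultures 1 and 3 to the line mean, from 10.6% for Cenpc1 to 46.3% for Cenpt.

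Other genes moved with culture 2. Of 7 osteoblast markers 6 were highest in culture 2, with a median of 0.66 above the mean of cultures 1 and 3, from 1.48 for Sp7 to -0.54 for Dmp1, the exception. Of 8 fat cell markers only Lep was highest there (0.31), and the list had a median difference of -0.39, with Fabp4 lowest at -0.71. Related lists, described below, were also higher in culture 2. The median excess was 0.93 for proliferation and mitotic entry genes and 0.67 for further spindle and cytokinesis genes. It was 0.41 for DNA replication genes and 0.31 for further centromere, kinetochore and checkpoint genes. The repressor and activator complexes had a median of -0.09. The part of these differences in the kinetochore values was not tested. Set against culture 2 alone, the line mean was higher by a median of 1.64, and set against the mean of cultures 1 and 3 by 2.54.

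Among the lines, OS_494H was the highest for 38 of the 41 genes, against 39.9% of all genes, with a median of 0.40 above the mean of OS_493H and OS_716H. The exceptions were Cenpm, Cenpp and Cenpt. The gap was largest for Ska1 (0.86), Ect2 (0.76), Nek2 (0.76) and Bub1 (0.72). OS_716H was the lowest line for 21 genes and OS_493H for 19. The related lists shared the high place of OS_494H. It was the highest line for 26 of 28 further centromere, kinetochore and checkpoint genes and 18 of 20 further spindle and cytokinesis genes. The same held for all 20 DNA replication genes, all 9 of proliferation and mitotic entry, and 10 of 11 of the repressor and activator complexes. These are descriptions of 1 array each, without a test. The spread was wider among cultures than among lines for 33 of the 41 genes, with median SDs of 0.50 and 0.26, while over all genes the cultures had the wider spread for 34.2%, with median SDs of 0.09 and 0.13.

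**Figure D4:**
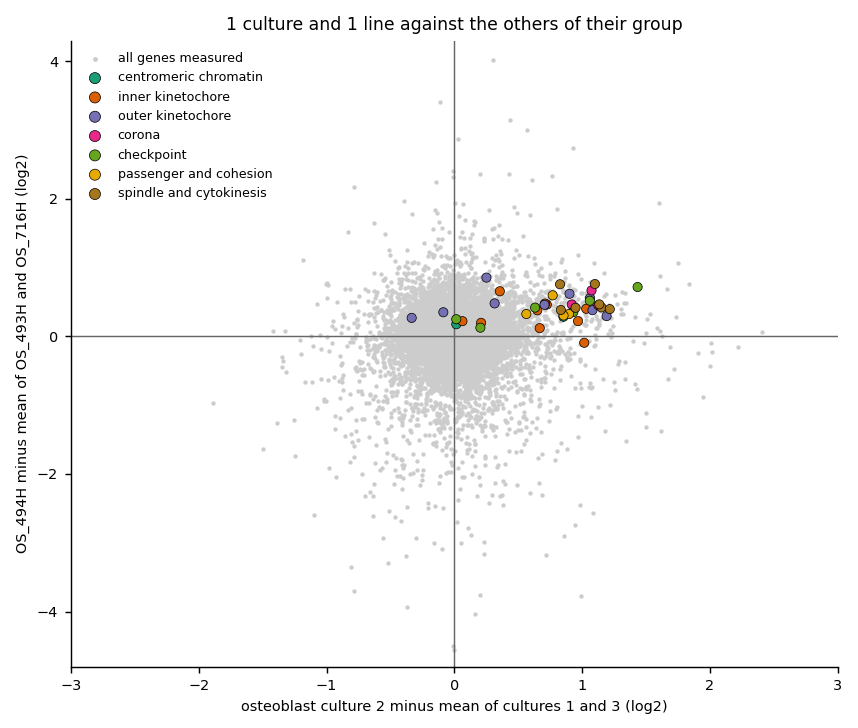
For each gene, osteoblast culture 2 minus the mean of cultures 1 and 3 (x axis, log2) against OS_494H minus the mean of OS_493H and OS_716H (y axis, log2), with grey points for all 19938 genes and coloured points for the 41 genes by role. Of the coloured points 31 lie far to the right, where culture 2 exceeds both other cultures by more than 0.5, and all but Cenpm lie above 0 on the y axis.

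The rest of the machinery was described from lists of related genes. Of 28 further centromere, kinetochore and checkpoint genes measured, 24 rose and 1 fell, with a median difference of 1.29. The largest rises were those of the mitotic kinase gene Plk1 (5.70-fold), the scaffold gene Knl1 (5.54-fold), Cdc20, the target of the checkpoint (5.45-fold), and Oip5, a subunit of the complex that prepares centromeres for new CENP-A (5.28-fold). Knl1 binds BUB1 and the product of Zwint, and was 2.47 ± 0.34 (SE) higher where Zwint differed by -0.02. Dsn1, Nsl1 and Pmf1, whose products share the platform of Mis12, rose by 1.06, 1.32 and 1.30, where Mis12 differed by -0.14. Cenpv, a gene of the centromere and the midzone, was the gene that fell (-1.06 ± 0.27 SE, adjusted p = 0.0299), and no further pathway gene was called lower when any 1 array other than OS_494H was left out. Aurkb, the kinase of the passenger complex, rose 4.16-fold.

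Of 20 further spindle and cytokinesis genes, 19 rose and none fell, with a median of 2.15. Kif20a, Kif23, Anln and Aspm led, with differences of 3.19, 2.85, 2.49 and 2.48. Numa1, which anchors the spindle poles, differed by -0.19 (adjusted p = 0.143). All 9 measured genes of proliferation and mitotic entry rose (median 2.23), among them Cdc25c, Ccna2, Ccnb2 and Top2a with 2.62, 2.52, 2.45 and 2.40. All 20 DNA replication genes rose as well (median 1.69), with Rrm2, Pole, Mcm6 and Prim1 at 2.66, 2.63, 2.17 and 2.15.

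The listed genes of the complexes that repress or activate cell cycle genes through the elements above went both ways. Of 11 genes, 5 rose and 3 fell. This list leaves out Mybl2 and Foxm1, which were counted with proliferation and mitotic entry. Mybl2 and Foxm1 rose 2.82- and 4.47-fold (adjusted p = 0.00523 and 0.0028). Lin9, a core subunit of the MuvB complex, rose 2.48-fold, and Rbl1 and Tfdp1 rose 2.31- and 1.68-fold. Rbl2, which encodes the p130 protein of the repressive form, fell 1.76-fold (-0.81 ± 0.08 SE, adjusted p = 0.00115). Of the other MuvB subunits on the list, Rbbp4 and Lin54 rose by 0.61 and 0.45 on the log2 scale (adjusted p = 0.00324 and 0.0477), and Lin37 and Lin52 fell by 0.29 and 0.34.

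**Figure D5:**
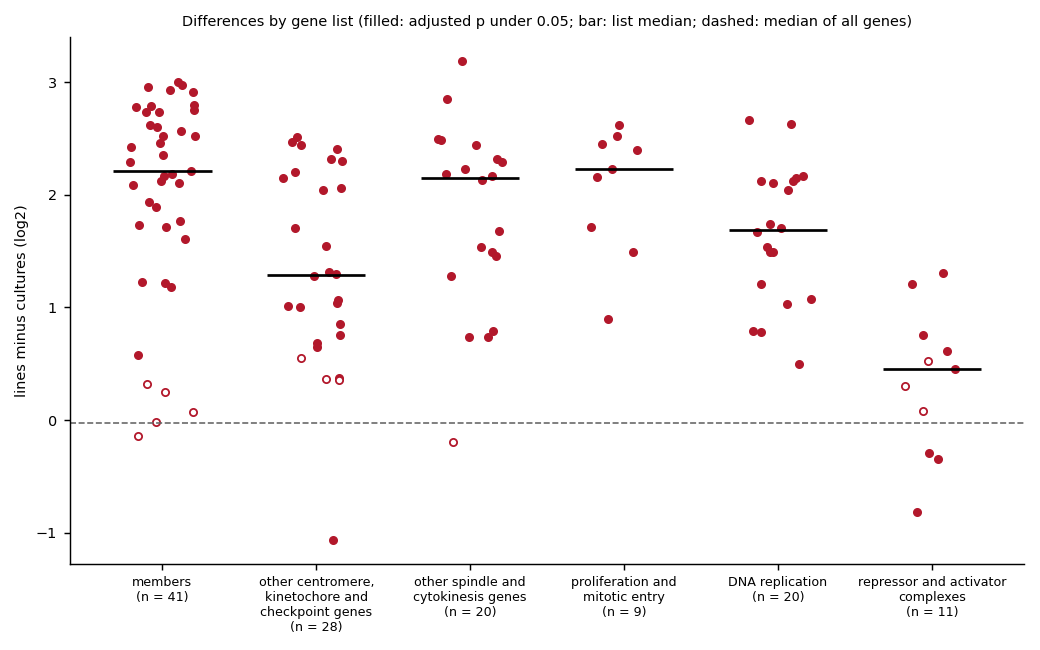
Difference of each gene on the log2 scale (y axis, lines minus cultures) for the 41 genes and 5 lists of related genes (x axis), with filled points for genes past the threshold, a bar at the list median and a dashed line at the median of all genes (-0.02). Medians are 2.21 for the 41 genes, 1.29, 2.15, 2.23 and 1.69 for the next 4 lists and 0.45 for the repressor and activator complexes.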

How the data were processed

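Total RNA of 6 samples was labelled with biotin and read on 1 Affymetrix array each. The deposited values are log2 expression per probe set, and per the submitters' processing notes the authors used RMA and mm9. The program that computed it is not given in the sources used here. Such values can understate large fold changes, and no detection calls came with the values. With 3 arrays a group, precision is limited by their number. No scan dates were used here, so no batch was tested.

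Of 35556 probe sets, 21789 had 1 gene symbol, 1621 several and 12146 none. For each of 19938 genes the probe set of highest average value stood for the gene. Groups came from the sample titles. They were compared with limma 3.58.1 in R 4.3.3 (lmFit and eBayes, two-sided) over all genes, with Benjamini-Hochberg adjustment and a threshold of 0.05. On simulated data for this comparison with 19938 genes, the fit recovered 66% of 100 genes changed 2-fold and 93% of 100 changed 4-fold, with 7 false calls of 166. In the simulation genes varied independently, with the same spread in both groups, and only genes brighter than the median were changed. The 41 genes had unequal spreads and shared the shift of culture 2, so these rates may not hold for them.

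All 41 members may be named, and of each related list the 4 called genes with the largest difference. Others were named outside that rule, after their values were seen. These are Aurkb, Dsn1, Nsl1, Pmf1, Numa1, Cenpv, Lin37, Lin52, Lin54, Rbbp4 and the genes of the label and marker checks. Cenpo, Cenps, Cenpu, Cenpw, Cenpx, Itgb3bp, Mybl2 and Foxm1 were also named in this way. Members and lists were chosen with earlier results of these data known. Lists are described by counts and medians, without a test. Promoters are RefSeq's, read with Python 3.11.15.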

Additional observations from a re-analysis of the deposited data

How the results depend on the processing

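Counts of the 41 genes that rose stayed within 1.5 times of 36 under quantile normalisation, median centring, a filter on dim genes, an intensity trend, robust moderation, array weights, the mean of probe sets, an adjusted p under 0.01 and, added after seeing the data, cultures 1 and 3 averaged. On leaving out 1 array at a time they were 35 to 37, the further pathway genes 40 to 44 higher and 0 to 1 lower, and the median difference 2.07 to 2.54. The count of 41 genes fell to 1 with unshared, separate spreads for lines and cultures and to 13 for more than a 2-fold change. The further pathway genes that rose, 43 in all, then numbered 6 and 4, and the 1 that fell was lost under both and at an adjusted p under 0.01 (0 in each). Of the 41 genes, 35 kept their call with every array in turn left out. Zwint changed sign, from -0.02 to 0.049 with median centring, 0.04 without culture 1, 0.04 without culture 3 and 0.12 without OS_716H, and ranged from -0.13 to 0.12 on leaving out 1 array. The cause was not tested.

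Over all genes, 2622 rose and 2274 fell. These counts became 213 and 199 with separate spreads, 121 and 93 for more than 2-fold, 1394 and 1072 at 0.01, 1533 and 1211 without culture 1, 1610 and 1350 without culture 3, and 1606 and 1316 with cultures 1 and 3 averaged. No paired analysis was possible because the labels number the cultures and not the lines.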
